A study of Mus musculus with 6 samples.

Results

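The genes described here are the ribosomal protein genes of the mouse, 164 of the 22442 genes in the deposited table, measured by RNA-seq in renal tubular epithelial cells. They were taken by gene symbol and not by any measured value. The symbol had to begin with Rpl, Rps, Mrpl or Mrps and a digit, or to be Rpsa, Rplp0, Rplp1 or Rplp2, and the ribosomal S6 kinases (Rps6k) and pseudogenes (-ps) were left out. Sorted by symbol alone, 86 were counted with the cytosolic ribosome (52 with the large subunit and 34 with the small) and 78 with the mitochondrial ribosome (49 and 29). Such a symbol does not always mean a part of the ribosome, or of the subunit it was counted with. Rps19bp1, for example, carries a member's symbol although its product is a binding partner of Rps19 and not a part of the ribosome.

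The study set out to silence Stat3, a transcription factor of cytokine signalling, in mTECs, a mouse renal tubular epithelial cell line. RNA of 6 libraries was sequenced. Cells for 3 of them (labelled LPS) had first been transfected with a negative control and for the other 3 (labelled LPSKD) with an RNA against Stat3, and then 20 μg/ml of lipopolysaccharide (LPS, a bacterial cell-wall component) was applied for 24 h, so that LPS treatment is common to both groups and the effect of LPS itself was not compared here. The sample records speak of an siRNA and of magnetically sorted cells, whereas the study's methods list an shRNA against mouse Stat3 and an immortalised line. The labels do not say whether the 3 libraries of a group came from separate cultures, so the p-values measure the spread between these libraries, which may be technical. The Stat3 transcript was at 34.6, 31.4 and 35.2 FPKM in the LPS libraries and at 30.8, 35.2 and 34.3 FPKM in the LPSKD libraries. These ranges overlap, the log2 fold change was −0.01 (95% interval −0.17 to 0.14, limma adjusted p = 0.944), so that LPS and LPSKD libraries below are named by label alone. The study does report Stat3 knockdown in mTECs by real-time PCR and by western blot, without saying whether those were the cultures sequenced.

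A ribosome translates messenger RNA with a small subunit that reads the codons and a large subunit that joins the amino acids. The cytosolic ribosome makes nearly all proteins of the cell, and the transcripts of its proteins typically begin with a C and a run of pyrimidines, the terminal oligopyrimidine (TOP) tract, through which mTOR and the RNA-binding protein Larp1 set how much they are translated. The mitochondrial ribosome translates the few messenger RNAs of mitochondrial DNA, and its proteins are encoded in the nucleus and imported. Proximal tubular cells are rich in mitochondria.

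The start of the transcript is one feature in which the 2 sets of genes differed, and a few windows are printed to show it. RefSeq promoters on GRCm38.p6 were found for 135 of the 164 genes, and 29 had none in the table used. A C at the listed start that opened an unbroken run of at least 5 pyrimidines was present in 14 of 78 promoters of cytosolic members (17.9%), in 0 of 75 promoters of mitochondrial members and in 823 of all 32851 promoters (2.51%). With such a run allowed to open within 5 bases of the start, the shares were 41.0%, 22.7% and 18.3%. Each window below covers the 10 bases before the listed start and 20 from it, 5′ to 3′ on the strand of the gene, and the capitals mark the pyrimidines that run on from the start. Rps6, Rps27, Rps15a and Rplp2 are shown as cytosolic members with such a run. Mrps33, Mrpl9 and Mrpl42 are mitochondrial members whose levels are given below. The first 2 begin with a purine and have no capitals, and Mrpl42 has a single one, but under the looser definition Mrps33 and Mrpl42 do hold such a run.
Rps6, chr4:86857348-86857377, minus strand: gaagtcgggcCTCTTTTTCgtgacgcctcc
Rps27, chr3:90213629-90213658, minus strand: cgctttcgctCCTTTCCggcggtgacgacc
Rps15a, chr7:118116128-118116157, minus strand: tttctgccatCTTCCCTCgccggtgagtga
Rplp2, chr7:141447641-141447670, plus strand: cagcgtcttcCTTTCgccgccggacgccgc
Mrps33, chr6:39810917-39810946, minus strand: cctctctcctgctctctggagctgggaagc
Mrpl9, chr3:94443326-94443355, plus strand: tcttccgcctgtccgctccgctgtcatggc
Mrpl42, chr10:95501930-95501959, minus strand: gcgcgctggaCggcgcctttaggacccaga

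Another feature was alike in both sets. In the 300 bases around the start (250 before and 50 after), on either strand, the letters CCGGAAG, a core bound by ETS factors, were found in 34.6% of promoters of cytosolic members, 34.7% of those of mitochondrial members and 8.86% of all promoters. A match is a description of the letters in this window.

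The libraries held between 24084827 and 25422171 fragments, worked back from the FPKM values. FPKM counts the fragments on a gene per kilobase of its length, scaled to the total fragments of the library. For tests, FPKM values of the 11723 genes that averaged 0.5 or more were taken to log2 after adding 0.1 and fitted in limma, with a Benjamini-Hochberg adjusted p under 0.05 as the threshold. Of 15 tubular markers 10 were tested, Pax2, Aqp1, Pax8 and Cdh16 rose by 0.27 to 0.93 on the log2 scale in the LPSKD libraries, Krt18 fell by 0.15, and Slc34a1, Umod and Aqp2, which mark mature segments of the nephron, were at 0 in every library. The summed FPKM of 7 fibroblast markers was 34.9 to 44.4 against 23.6 to 45.2, that of 8 immune markers 58.2 to 64.8 against 61.4 to 74.8, and that of 5 endothelial markers 2.49 to 4.47 against 2.87 to 4.66. Of the 5 immune markers tested, Csf1r, a receptor of macrophages, rose by 0.45 on the log2 scale, and Cd68 (−0.30), Adgre1 (−0.39), Ptprc (−0.18) and Lyz2 (−0.04) did not pass. With 1 library left out, the call of Krt18 was lost in 5 of 6 fits, that of Csf1r in 4, that of Aqp1 in 3 and that of Cdh16 in 2, and those of Pax2 and Pax8 in 0. The part of these markers in the results was not tested. LPS replicate 1 was the lowest of the 6 libraries in 61 of 83 tested cytosolic members (73.5%) and 32 of 78 mitochondrial members (41.0%). The share was 32.7% for other genes with a mean of at least 100 FPKM and 19.7% for those of at least 10 FPKM. With under 500 coding bases, it was 85.1% for cytosolic and 48.0% for mitochondrial members, and 57.2% and 44.1% for these other genes. The counts of calls and the medians are therefore also given without this library.

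The 2 ribosomes were expressed at different levels. Cytosolic members had a median of 738 FPKM (the mean of the 6 libraries for each gene), and the highest stood at 2834. Mitochondrial members ranged from 15.9 to 141 FPKM with a median of 51.3. Among cytosolic members the highest were Rpl41, which encodes a very short peptide of the large subunit, Rplp0, the base of the stalk that recruits translation factors, and Rpl6, and in the small subunit Rps2, Rpsa (also known as the laminin receptor) and Rps4x. The highest mitochondrial members were Mrpl42, Mrpl12, the stalk protein, and Mrpl43 in the large subunit, and Mrps23, Mrps17 and Mrps18b in the small.

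**Figure D1:**
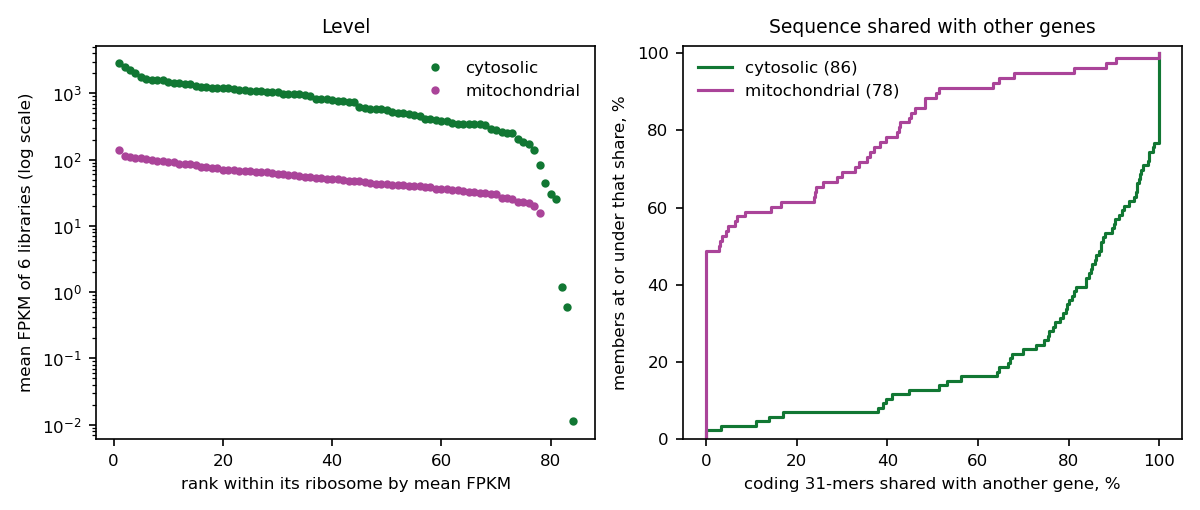
Left, mean FPKM of each member over the 6 libraries on a log axis, against its rank within its own ribosome. The cytosolic curve lies above the mitochondrial one down to its last few members, where Rpl13a is at 1.17, Rps10 at 0.602 and Rpl3l at 0.0112 FPKM. Members at 0 in every library are not drawn. Right, cumulative share of members by the percentage of coding 31-mers that also occur in a transcript of another gene, with a median of 87.2% for the cytosolic and 3.04% for the mitochondrial ribosome.

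The sequence behind these levels also differed. Of the 31-base stretches in the coding sequence of a cytosolic member, a median of 87.2% also occurred in a transcript of another gene, most often a processed pseudogene, and 20 of the 86 members had no stretch of their own. The median cytosolic member shared sequence with 14 annotated pseudogenes and Rpl7a with 163. For mitochondrial members the median share was 3.04% and 38 of 78 shared none. How fragments with several possible origins were assigned is not given in the sources used here, so levels of cytosolic members are less certain than those of mitochondrial ones.

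A few members lie within another annotated gene. Rps10, a protein of the small-subunit head, was at 0.706, 1.13 and 0.432 FPKM in the LPS libraries and at 0.281, 0.511 and 0.553 in the LPSKD libraries, from 4 to 16 fragments per library. Rpl13a, a widely used reference gene, lay between 1.01 and 1.47 FPKM, from 16 to 24 fragments. In the GENCODE M21 annotation of GRCm38, 80.1% of the coding bases of Rps10 also lie in exons of RPS10-NUDT3 on the same strand, and 90.3% of those of Rpl13a lie in exons of Gm45713 and a microRNA. RPS10-NUDT3 and Gm45713 were listed at 0 in every library. Their shared 31-base stretches, 80.1% for Rps10 and 64.3% for Rpl13a, were below the cytosolic median, and such an overlap did not always go with a low value. Rpl24 (83.4% in Gm28037) stood at 641 to 775 FPKM, Rpl36al (95.3% in Gm49383) at 303 to 380 FPKM, and Mrpl53 (100% in Gm42688) at 87.5 to 118 FPKM. The part of shared sequence and of these overlaps in the levels was not tested.

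Added over its members, neither ribosome was separated by the label. Cytosolic members summed to 64025, 71386 and 67838 FPKM in the LPS libraries and to 70597, 69912 and 67628 FPKM in the LPSKD libraries. The means were 67750 ± 3681 and 69379 ± 1555 (SD, n = 3 each), higher by 2.41% in LPSKD, and the ranges overlapped. They took between 3.97% and 4.34% of all fragments. Mitochondrial members summed to 4193, 4514 and 4401 FPKM against 4499, 4608 and 4363 FPKM. Their means of 4369 ± 163 and 4490 ± 123 (SD, n = 3 each) differed by 2.77%, again with overlap. In both sums LPS replicate 1 was the lowest library. Without it the LPS mean of the cytosolic sum was 69612 FPKM, so that the LPSKD mean differed by −0.334%, and the mitochondrial difference was 0.737%. In bulk RNA such as this, fewer cells of a type and less RNA per cell cannot be told apart.

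The balance between the ribosomes was nearly constant. The log2 ratio of cytosolic to mitochondrial summed FPKM was 3.93, 3.98 and 3.95 in the LPS libraries and 3.97, 3.92 and 3.95 in the LPSKD libraries, close to a 15.5-fold excess of cytosolic transcripts. Its means were 3.954 ± 0.0261 and 3.950 ± 0.0246 (SD, n = 3 each). The difference of −0.00424 was smaller than either SD, and 2 libraries of one group lay within the range of the other. Leaving out LPS replicate 1 gave −0.015.

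**Figure D2:**
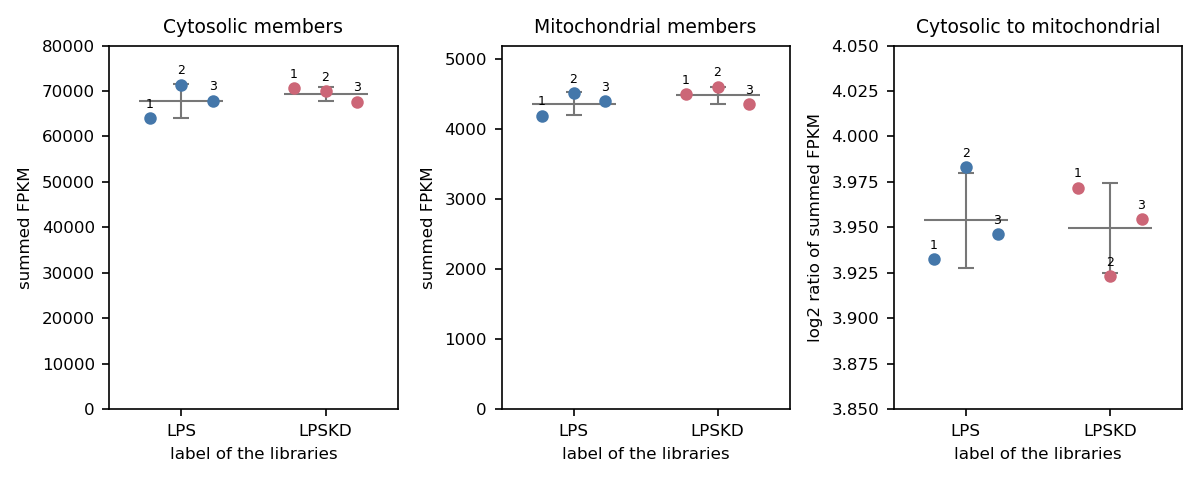
Summed FPKM of the cytosolic members, summed FPKM of the mitochondrial members and log2 ratio of the first to the second in each of the 6 libraries. Points are libraries numbered by replicate, wide horizontal lines are group means and bars are SD (n = 3). The first 2 panels start at 0 and the third does not. In each panel the groups overlap, and replicate 1 of LPS is the lowest in both sums.

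Within a ribosome, the log2 ratio of large-subunit to small-subunit FPKM was compared as well, a comparison added after the values were seen. The subunits here are those given by the symbol, which need not be the subunit a protein lies in. For the cytosolic ribosome it was 0.60, 0.57 and 0.59 against 0.59, 0.58 and 0.60, with overlap. For the mitochondrial ribosome it was 1.02, 1.05 and 1.05 in the LPS libraries and 1.08, 1.08 and 1.07 in the LPSKD libraries. Here the groups did not overlap. The difference was small, 0.039 on the log2 scale, and it was between 0.031 and 0.044 with any 1 library left out. The large mitochondrial subunit summed to 2939 ± 118 against 3046 ± 85.6 FPKM and the small to 1431 ± 44.7 against 1444 ± 37.5 FPKM (SD, n = 3 each).

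Gene by gene, 1 of the 161 ribosomal protein genes that passed the filter was past the threshold. Rpl3l, Rpl10l and Rpl39l, paralogues restricted mostly to muscle or testis, did not pass it. Rpl10l and Rpl39l were listed at 0 in every library, and Rpl3l had at most 1 fragment in any. Across all genes tested, 3.23% were past the threshold, 1.57% higher and 1.66% lower in the LPSKD libraries. In limma, 0 of 83 cytosolic members passed, of which 7 (8.43%) had an unadjusted p under 0.05, and 1 of 78 mitochondrial members passed, of which 7 (8.97%) had an unadjusted p under 0.05. The corresponding share of all genes was 17.6%. Under the voom fit on recovered fragments 0 cytosolic members passed as well. Without LPS replicate 1, 0 cytosolic and 0 mitochondrial members passed.

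The sizes of the differences were small in both ribosomes. The median log2 fold change was 0.03 for cytosolic members and 0.03 for mitochondrial members, against −0.01 for all genes tested. The central range from the lower to the upper quartile was −0.01 to 0.09 for cytosolic and −0.04 to 0.10 for mitochondrial members. For 81 of 83 cytosolic members (97.6%) and 77 of 78 mitochondrial members (98.7%) the 95% interval lay wholly within 0.5 of 0 on the log2 scale, compared with 96.0% of the 8041 genes with a mean of at least 10 FPKM. The exceptions were Rpl13a, Rps10 and Mrps33. A change larger than that size is thus outside the interval of nearly every member. Groups did not overlap for 4 cytosolic members (4.82%) and 8 mitochondrial members (10.3%), against 23.8% of all genes tested. The 4 cytosolic members, Rpl26, Rpl23a, Rpl36al and Rps15a, were all higher in LPSKD.

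**Figure D3:**
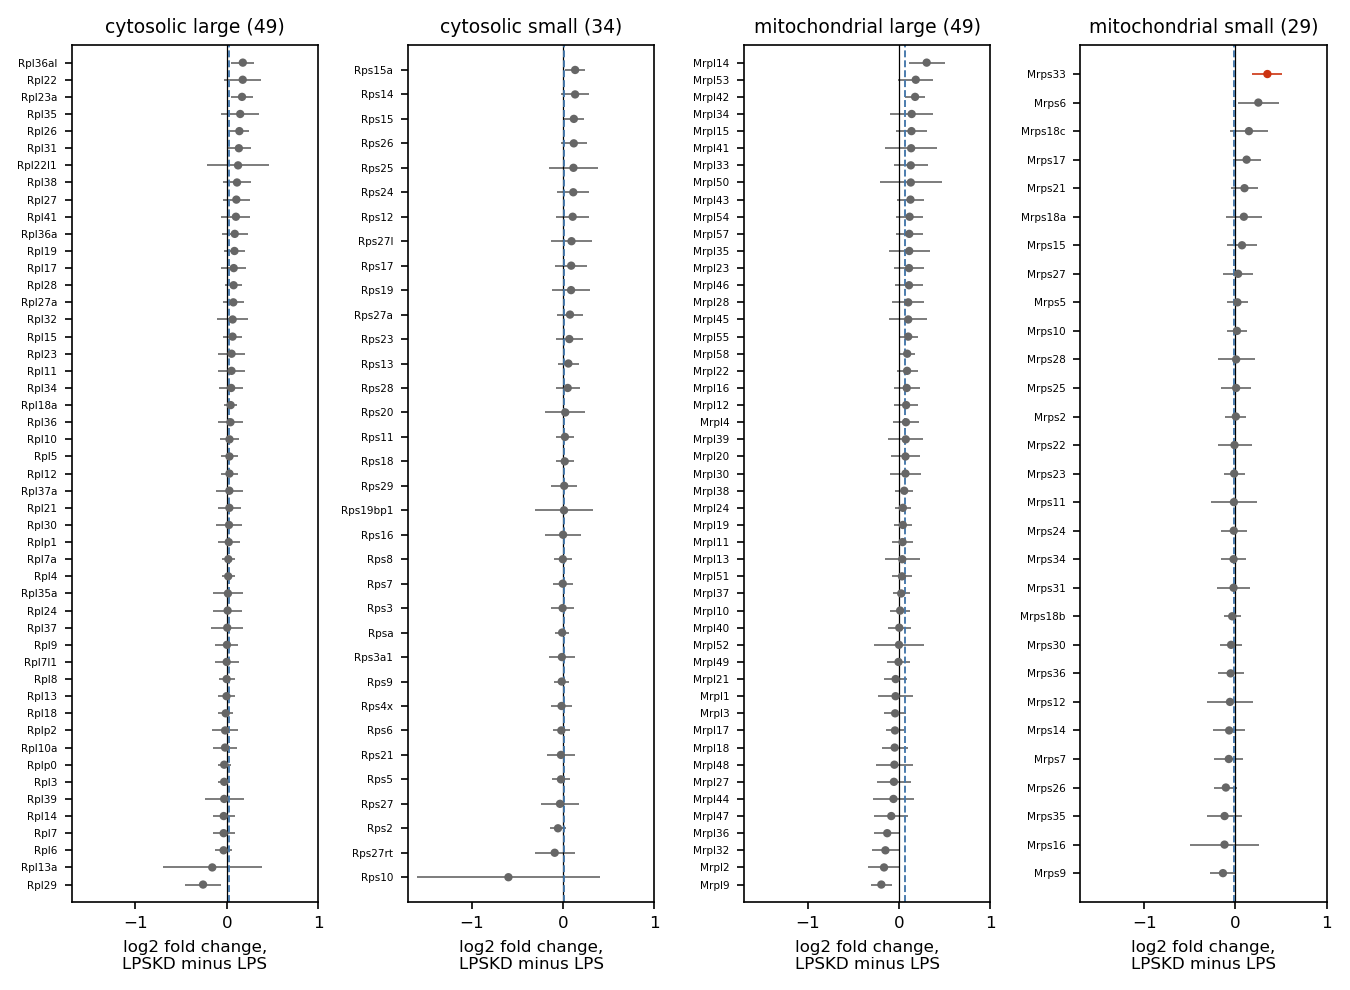
Log2 fold change (LPSKD minus LPS) of each of the 161 tested members in 4 panels by subunit, with its 95% interval from limma. Dashed lines are the median of each subunit, solid lines are 0, and the member in red, Mrps33, is the one with an adjusted p under 0.05. Most intervals include 0, and the widest belong to Rps10 and Rpl13a, which had few fragments.

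In the large cytosolic subunit the median log2 fold change was 0.03 over 49 members. Rplp0, the base of the stalk, was at 2552, 2529 and 2520 FPKM against 2490, 2538 and 2430 FPKM. Its partners Rplp1 and Rplp2 had log2 fold changes of 0.02 and −0.02. All 3 overlapped between the groups and none passed. The core proteins Rpl3 and Rpl4, which line the peptide exit tunnel and the catalytic centre, had −0.03 and 0.02, with standard errors of 0.03 each. Rpl5 and Rpl11 bind the small ribosomal RNA of the large subunit and, when free of the ribosome, the p53 regulator Mdm2. They had log2 fold changes of 0.03 and 0.05 (limma adjusted p = 0.769 and 0.735).

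The members of the large subunit farthest from 0 did not pass either. Rpl36al, a copy of Rpl36a, was at 303, 354 and 327 FPKM in the LPS libraries and at 370, 361 and 380 FPKM in the LPSKD libraries. The groups did not overlap, but the log2 fold change of 0.18 (standard error 0.05) did not pass (limma adjusted p = 0.144). Rpl22, which also binds RNA outside the ribosome, was at 265, 355 and 314 FPKM against 350, 354 and 343 FPKM, where the lowest library was LPS replicate 1. Its paralogue Rpl22l1 was at 61.8, 101 and 79.3 FPKM against 86.4, 92.3 and 80.7 FPKM and had the wider standard error of the pair, 0.15. In the other direction, Rpl29 was at 30.2, 29.0 and 25.1 FPKM against 22.1, 25.8 and 22.4 FPKM. Its groups overlapped, its log2 fold change was −0.26 (limma adjusted p = 0.179), and 95.5% of its coding stretches were shared, with 125 pseudogenes.

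In the small cytosolic subunit the median was 0.02 over 34 members. Rps6, the substrate of the S6 kinases, was at 1202, 1319 and 1263 FPKM against 1235, 1275 and 1226 FPKM, with a log2 fold change of −0.02. Rps19, mutated in Diamond-Blackfan anaemia, was at 218, 291 and 256 FPKM against 283, 267 and 259 FPKM. In both genes LPS replicate 1 was the lowest and LPS replicate 2 the highest library. Rps15a had the highest log2 fold change of the subunit, from 538, 589 and 580 FPKM to 652, 596 and 625 FPKM, with no overlap and a value of 0.13 (limma adjusted p = 0.192). Rps14, in the platform of the subunit, was close to it at 0.13 (limma adjusted p = 0.355).

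Members whose symbols begin with Rps27 were also measured. Rps27, its paralogue Rps27l, a p53 target, and the retrogene Rps27rt had log2 fold changes of −0.03, 0.09 and −0.09, and Rps27a, a ubiquitin fusion, had 0.08. Their levels were 207 FPKM, 172 FPKM, 29.9 FPKM and 778 FPKM as means of the 6 libraries. All coding stretches of Rps27rt and Rps27a occurred in other genes too. Rps10 had the lowest log2 fold change of all members, −0.60, with a standard error of 0.44 on its few fragments (limma adjusted p = 0.533).

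In the large mitochondrial subunit, 34 of 49 members had a positive and 15 a negative log2 fold change, with a median of 0.07, and 0 passed the threshold. Mrpl14, which lies where the subunits meet, was at 75.8, 96.6 and 84.8 FPKM in the LPS libraries and at 109.8, 109 and 97.3 FPKM in the LPSKD libraries. The lowest LPSKD library lay just above the highest LPS library, and the log2 fold change was 0.30 (standard error 0.09, limma adjusted p = 0.119). Mrpl42, the highest of the subunit, was at 126, 141 and 131 FPKM against 148, 155 and 147 FPKM. The groups were apart, with a log2 fold change of 0.17 (limma adjusted p = 0.106). Mrpl58, a peptidyl-tRNA hydrolase built into the ribosome, was at 64.2, 65.9 and 66.0 FPKM against 68.1, 70.9 and 69.4 FPKM, also without overlap (log2 fold change 0.09, limma adjusted p = 0.285).

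Mrpl9 was the member of this subunit with the lowest log2 fold change. It was at 53.3, 55.6 and 54.6 FPKM in the LPS libraries and at 48.6, 49.2 and 45.0 FPKM in the LPSKD libraries. Each LPSKD library lay below each LPS library, and the log2 fold change of −0.20 (standard error 0.05) had an adjusted p of 0.080 (limma). Mrpl2 was next at −0.17, with groups that overlapped. The stalk proteins Mrpl11 and Mrpl12 had 0.04 and 0.08 and overlapped between groups. Without LPS replicate 2, which was the highest library in 39 of the 83 cytosolic members, Mrpl14 and Mrpl42 passed (limma adjusted p = 0.0374 and 0.0428), and among cytosolic members Rpl36al (0.0419), Rpl23a and Rpl31.

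In the small mitochondrial subunit Mrps33 rose, the only one of the 161 tested members past the threshold. It was at 30.2, 32.7 and 32.6 FPKM in the LPS libraries and at 44.1, 41.1 and 36.9 FPKM in the LPSKD libraries. The groups did not overlap, from 239 to 350 fragments per library, and the log2 fold change was 0.35 (standard error 0.07, 95% interval 0.19 to 0.51, limma adjusted p = 0.0396). This call was not stable. It was lost in 9 of the 16 alternatives tried, among them every fit with 1 library left out other than LPSKD replicate 3 (0.0691 to 0.136, and 0.0791 without LPS replicate 1). Its direction was kept in all 16. Of its coding stretches, 88.3% also occurred in other genes, 2 of them pseudogenes.

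**Figure D4:**
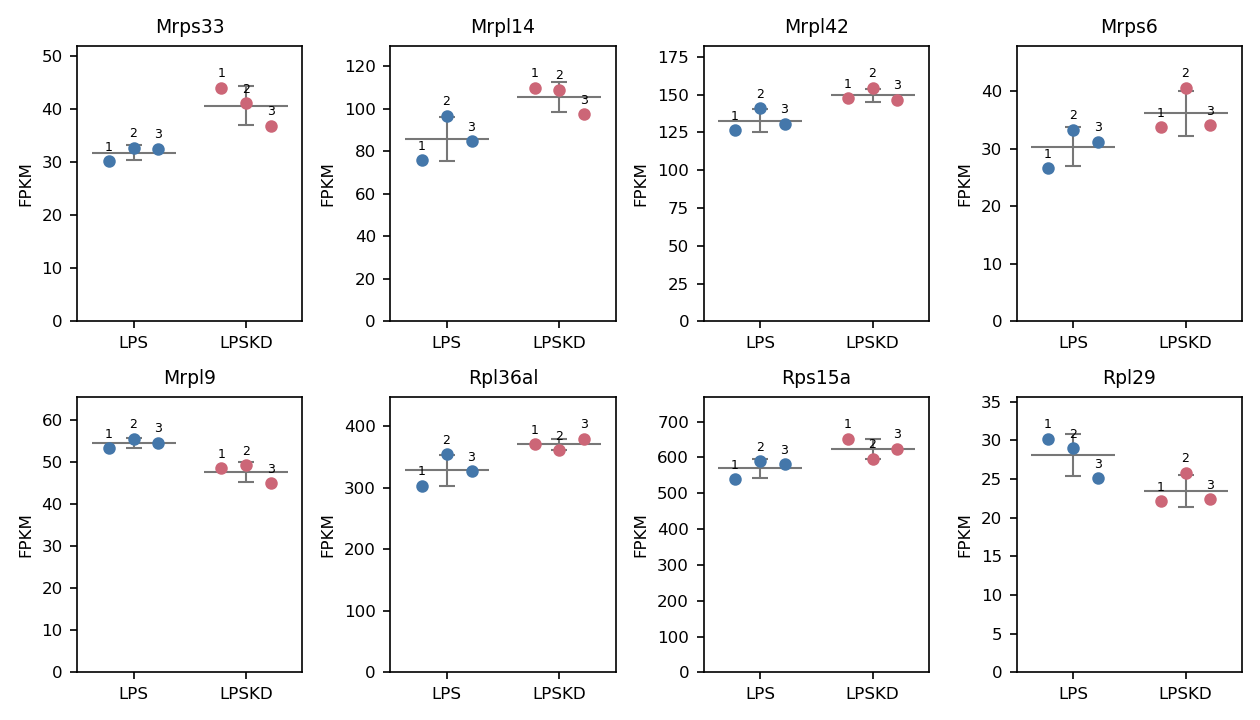
FPKM in each library of 8 members whose groups were apart or whose log2 fold change was among the largest of their subunit. Points are libraries numbered by replicate, wide lines are group means and bars are SD (n = 3), and each axis starts at 0. Mrps33 rose in LPSKD at an adjusted p under 0.05, and the other 7 did not pass. The groups overlap for Rpl29 and not for the other 7.

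Over the whole small mitochondrial subunit the median log2 fold change was −0.01, with 13 positive and 16 negative values. Mrps6 was at 26.6, 33.3 and 31.2 FPKM against 33.8, 40.6 and 34.1 FPKM, with a log2 fold change of 0.25 (limma adjusted p = 0.241). Mrps9 was at 32.6, 36.0 and 34.1 FPKM against 29.2, 32.1 and 32.2 FPKM, lower in each LPSKD library, with −0.14 (limma adjusted p = 0.296). Mrps12, of the decoding centre, had −0.06. The 3 versions of Mrps18 were counted here by symbol, although they occupy different places in the ribosome, and they differed in level. Mrps18b was at 85.0, Mrps18a at 53.7 and Mrps18c at 48.4 FPKM as means of the 6 libraries, and their log2 fold changes were −0.04, 0.09 and 0.15, with none past the threshold.

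In some libraries the deviation of cytosolic members went with the length of the coding sequence, most in replicate 1 of each group. Its rank correlation (Spearman) with length was 0.52 in LPS replicate 1 and −0.66 in LPSKD replicate 1. It was −0.39 and 0.22 in LPS replicates 2 and 3, and 0.19 and −0.04 in LPSKD replicates 2 and 3. For mitochondrial members it lay between −0.30 and 0.20. For the 47 cytosolic members with under 500 coding bases, the median deviation of LPS replicate 1 from the mean of the 6 libraries was −0.16 on the log2 scale, and for the 36 longer ones it was −0.06. For mitochondrial members these medians were −0.11 and −0.03. Genes outside both ribosomes showed the same order, with −0.10 for short and −0.01 for longer ones among those with a mean of at least 100 FPKM. LPSKD replicate 1 deviated the other way, by 0.09 for short and −0.00 for longer cytosolic members.

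The fold changes followed the same split. Short cytosolic members had a median log2 fold change of 0.06, and 41 of 47 were positive, whereas the longer ones had −0.00 and 14 of 36 were positive. Short and longer mitochondrial members had medians of 0.11 and 0.01, and genes outside both ribosomes with a mean of at least 10 FPKM had 0.06 and −0.01. The short mitochondrial members include Mrps33, Mrpl14 and Mrpl42. Without LPS replicate 1 the median of all cytosolic members was −0.02, with 30 positive and 53 negative, and that of mitochondrial members was 0.01. The part of length in the differences between the groups was not tested.

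**Figure D5:**
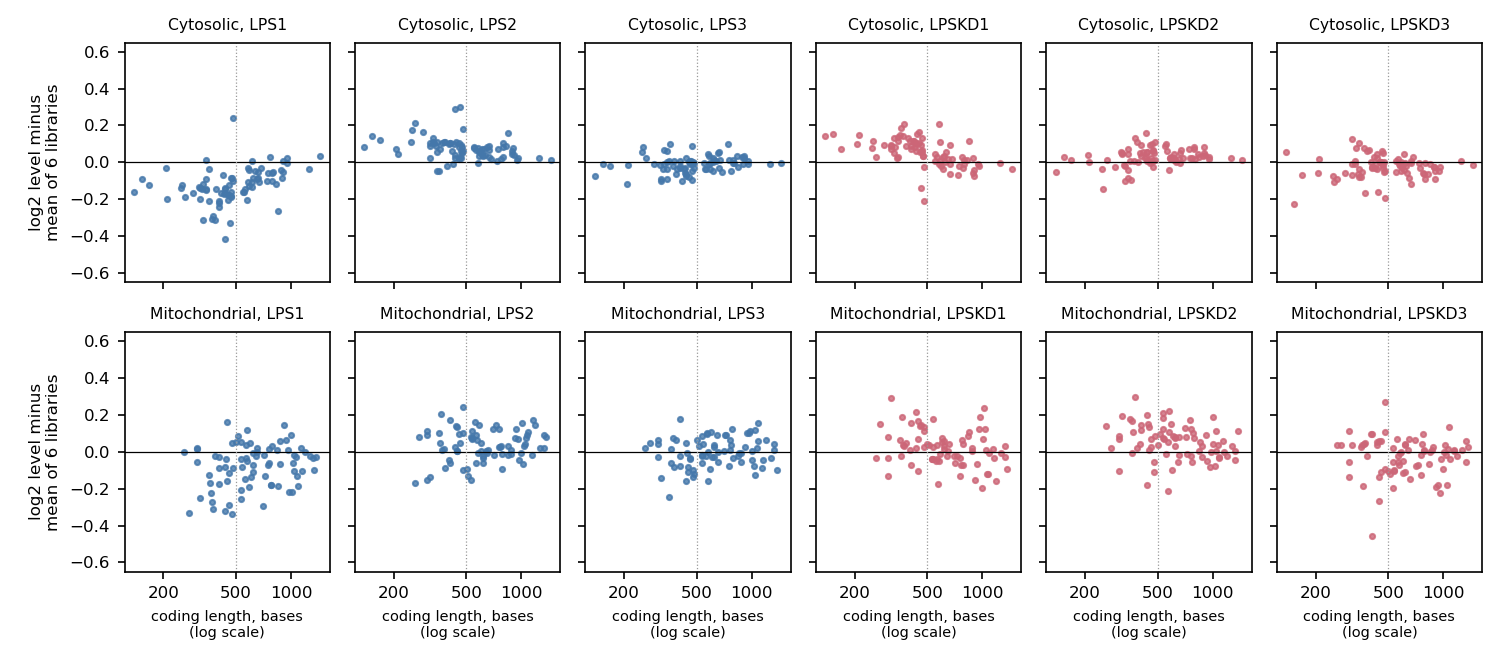
Log2 level of each member in a library minus its mean over the 6 libraries, against its coding length on a log axis, for members with a mean of at least 10 FPKM. Columns are libraries (blue LPS, red LPSKD), rows are the 2 ribosomes and the dotted line is at 500 bases. In LPS1 the short cytosolic members lie lowest (median −0.16), and in LPSKD1 they lie above 0 (median 0.09).

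Replicates of ribosomal protein genes also varied more than those of other genes in a roughly similar range of levels. The sets were not matched for coding length, and some cytosolic members lay below 150 FPKM. Median coding length was 468 bases for cytosolic and 601.5 for mitochondrial members, against 1362 for all genes with a mean of at least 10 FPKM. The median coefficient of variation within groups was 6.06% for cytosolic members against 3.26% for other genes with a mean of at least 150 FPKM. It was 6.89% for mitochondrial members against 4.91% for other genes between 15 and 150 FPKM. When members were divided by shared sequence, the median log2 fold change of cytosolic members was 0.01 where under 50% of coding stretches were shared (8 genes) and 0.03 for the other 75. For mitochondrial members it was 0.02 (69 genes) and 0.09 (9 genes, Mrps33 among them).

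Genes that build or serve the ribosomes were read from lists. Rack1 and Fau, cytosolic ribosomal proteins whose symbols lie outside the rule, had log2 fold changes of −0.02 and 0.02. Of 58 genes for assembly of the cytosolic ribosome, 1 rose and 1 fell, with a median of −0.07 and 45 negative values. Of all genes tested, 1.57% rose and 1.66% fell, so the count of calls in this list was near that share. Nop10, a part of the complex that converts uridines of ribosomal RNA to pseudouridine, rose from 92.6, 108 and 107 FPKM to 141, 135 and 121 FPKM (log2 fold change 0.37, limma adjusted p = 0.0363). Wdr43, which helps form the small-subunit precursor, fell from 123, 122 and 127 FPKM to 104, 109.8 and 108 FPKM (−0.20, limma adjusted p = 0.0266). For both genes the groups were apart. Without LPS replicate 3 their adjusted p was 0.0849 and 0.121 (limma), and both were also lost without LPSKD replicate 1 or 2, Nop10 without LPS replicate 1 (0.0537) and Wdr43 without LPSKD replicate 3 (0.0963).

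Among 20 genes of RNA polymerase I, which transcribes ribosomal RNA, 0 passed, with a median of −0.00. Of 21 genes on a list of translation factors and other genes with TOP transcripts, Npm1 and Hnrnpa1 among them, 0 passed. Their median was −0.00, and Eef1a1, the most abundant, had a log2 fold change of 0.02. A list of 19 genes for the control of TOP transcripts was broad and also held Myc, Max, Larp4 and kinases of the RSK family. Of these 19, 0 rose and 1 fell, with a median of −0.03, where 1.66% of all genes tested fell. The gene that fell was Rps6ka2, a kinase of the RSK family, at 29.1, 25.4 and 27.0 FPKM against 22.4, 20.5 and 21.3 FPKM (log2 fold change −0.34, limma adjusted p = 0.0347). Its groups did not overlap. With LPS replicate 1 left out its adjusted p was 0.0660, and it was also over 0.05 without any one of the other libraries except LPS replicate 2. Mtor and Larp1 had −0.05 and −0.03.

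On the mitochondrial side, 0 of 25 assembly genes, 0 of 16 translation factors, 0 of 9 transcription genes and 0 of the 13 mRNAs of mitochondrial DNA passed, with medians of −0.02, −0.02, 0.01 and 0.03. Ybey, an endonuclease of the assembly list, had the lowest value of these, −0.50 (limma adjusted p = 0.116), at 4.41, 4.08 and 4.41 FPKM against 2.85, 2.70 and 3.52 FPKM. Some mRNAs of mitochondrial DNA had few fragments, with 3 to 14 per library for mt-Nd3 and 5 to 12 for mt-Atp8. Their log2 fold changes had standard errors of 0.50 and 0.33. Among the products of the mitochondrial ribosome, mt-Co1 was at 10961, 11860 and 11255 FPKM against 12178, 12339 and 12195 FPKM, apart in the 2 groups but not past the threshold (log2 fold change 0.11, limma adjusted p = 0.220). The 5 mitochondrial ribosomal proteins named outside the rule included 0 that passed. Dap3 and Ptcd3 were lower in each LPSKD library (log2 fold change −0.15 and −0.13), and Chchd1 and Gadd45gip1 were higher in each (0.23 and 0.17). Aurkaip1 had −0.16 and overlapped between the groups.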

How the data were processed

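The data comprised 6 RNA-seq libraries of mTECs, with 3 in each labelled group (LPS and LPSKD). The authors deposited FPKM values of 22442 Ensembl genes with no pooling of replicates. The submitters' processing notes name Bowtie 0.12.2, HISAT2 2.0 and StringTie 1.3.0 and the builds mm8 and GRCh38.p13, without a role for any of them. How multiply mapped fragments were counted is not given in the sources used here. Of the identifiers, 22399 matched GENCODE M21 (GRCm38), which gave symbols, positions and coding lengths.

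Multiplied by the merged coding length and a library total, the FPKM values of 16836 of 16837 genes above 0 came out as whole fragments (within 0.0001 of a fragment), 16454 of them at the coding length or up to 10 bases more. With totals raised by 0.1%, 127 did. Counting error is therefore known, and is large for genes with few fragments.

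limma 3.58.1 in R 4.3.3 (lmFit, eBayes with trend) was run on FPKM values raised by 0.1 and log2-transformed, for genes averaging 0.5 FPKM or more, without covariates, with Benjamini-Hochberg adjustment over all 11723 genes and a threshold of 0.05. Because of the added 0.1, changes of low genes are understated on this scale. The fit was tested on simulated data. Levels between genes were compared only as FPKM. Members and lists were summarised by counts and medians with no test. Members, lists and tests were chosen with earlier results of these data known.

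Coding sequences were cut into all stretches of 31 bases and searched, on both strands, in 141767 GENCODE M21 transcripts. Promoters came from RefSeq (GRCm38.p6). Summaries used Python 3.11.15, numpy 2.4.6 and pandas 2.3.3, and matplotlib 3.10.9 drew the figures.

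Members were named by a rule. It takes each member past the threshold and, per subunit, the 3 highest and the 2 largest rises and falls. It adds fixed members and paralogues, and from each list every gene past the threshold and a few fixed ones. Rpl23a, Rpl24, Rpl26, Rpl31, the overlapping genes, mt-Co1 and Ybey were named after their values were seen. The alternatives were 2 other pseudocounts, 3 other filters, quantile normalization, centring on library medians, eBayes with no trend, a block on the replicate number, each library left out and voom on the recovered fragments, 16 in all. Over all genes tested, the correlations of same-numbered deviations were close to 0 (−0.016, −0.004 and −0.043). A pairing that acts on some genes only would not show in such a correlation. Some genes covered by the lists are not reported here.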

Additional observations from a re-analysis of the deposited data

How the results depend on the processing

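The counts of genes past the threshold depended on the model of the spread. Over all genes tested, 379 passed, 140 in eBayes without trend, 213 with the replicate number as a block and 598 with voom. The range was 158 to 356 with 1 library left out, with 158 without LPS replicate 3 and 178, 192 and 168 without LPSKD replicates 1, 2 and 3. Of cytosolic members, between 0 and 3 passed with 1 library left out (3 without LPS replicate 2) and 0 under every other alternative. Of mitochondrial members, 0 passed with no filter, without trend, with voom and with the replicate block, and between 0 and 2 with 1 library left out. Mrps33 was thus lost in each leave-one-out fit except that without LPSKD replicate 3, and its adjusted p in limma was 0.0704 with no filter, 0.125 without trend, 0.103 with voom and 0.069 to 0.136 in those fits. The fewer libraries of these fits and the larger number of genes tested with no filter are part of their construction, and other causes were not tested.

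Medians and the ratio of the ribosomes moved by less than 1 SD between libraries under all alternatives run for them. The cytosolic median lay between −0.02 and 0.07 with 1 library left out, and was negative only without LPS replicate 1. Quantile normalization gave 42 positive and 41 negative cytosolic members in place of 55 and 28, and centring on library medians 61 and 22. The mitochondrial median lay between 0.01 and 0.05 with 1 library left out.

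No called member changed sign. Of 766 values of 48 named members, 36 had the other sign, all of them uncalled. Rpl4 was at −0.022 and Rpl5 at −0.025 with quantile normalization, and Rpl7l1 at 0.0057 with centring. Omitting 1 library at a time gave log2 fold changes of −0.064 to 0.044 for Stat3. Among mitochondrial members the ranges that held both signs were −0.0077 to 0.071 (Mrpl11), −0.16 to 0.058 (Mrps12), −0.24 to 0.078 (Mrps16) and −0.054 to 0.023 (Mrps23). Among those of the large cytosolic subunit they were −0.015 to 0.11 (Rpl11), −0.053 to 0.30 (Rpl22l1), −0.11 to 0.077 (Rpl39), −0.0037 to 0.061 (Rpl5), −0.052 to 0.048 (Rpl7l1), −0.016 to 0.072 (Rplp1) and −0.091 to 0.022 (Rplp2). Among those of the small one they were −0.020 to 0.19 (Rps19), −0.15 to 0.17 (Rps19bp1), −0.13 to 0.066 (Rps27), −0.038 to 0.17 (Rps27l), −0.057 to 0.023 (Rps4x), −0.052 to 0.015 (Rps6) and −0.026 to 0.0023 (Rpsa).

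With the replicate number as a block, 213 genes passed in place of 379, 0 of them ribosomal proteins, and Mrps33 had an adjusted p of 0.10 (limma). Wdr43, Nop10 and Krt18 were also lost (adjusted p = 0.0630, 0.0970 and 0.0808 in limma), and Pax2, Pax8, Aqp1, Cdh16, Csf1r and Rps6ka2 were not. Without trend each of these genes but Pax2 was lost. Whether same-numbered libraries belong together is not known from the numbers alone.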

Other observations

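Among the transcripts that the mitochondrial ribosome translates, 2 stood out for single libraries. mt-Nd6, the subunit of respiratory complex I encoded on the other strand of mitochondrial DNA, was at 81.1, 152 and 141 FPKM in the LPS libraries and at 78.9, 140 and 147 FPKM in the LPSKD libraries, low in replicate 1 of both groups. mt-Atp6, a subunit of ATP synthase, was at 25.4, 29.7 and 25.1 FPKM against 27.2, 32.0 and 79.3 FPKM, with the one high value in LPSKD replicate 3. Neither was past the threshold (log2 fold change −0.03 and 0.62, adjusted p = 0.969 and 0.390 from limma). Both genes were taken from the list of the 13 mRNAs of mitochondrial DNA and chosen after their values were seen.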
